A study of Bos taurus with 20 samples.

Results

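The Hippo pathway genes described here are the transcriptional co-activators YAP1 and WWTR1 (the gene for TAZ), the DNA-binding partners TEAD1, TEAD2, TEAD3 and TEAD4, the kinases LATS1 and LATS2, and AMOTL2 and ANKRD1, both of which are known YAP/TAZ targets. They were chosen by symbol, and are 10 of the 33063 named genes in the count table. All 10 were listed under their own symbol and all 10 passed the filter on low counts, which left 12900 genes to be tested.

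The samples were 20 clones of bovine mesenchymal stem cells (MSCs), each grown from a single cell sorted from a cultured MSC preparation. These preparations came from visceral fat of Holstein Friesian x Aberdeen Angus calves aged 1 to 6 months, and had already been passaged before sorting. Sister cells of each clone were given adipogenic medium, and the clones were then called adipogenic (A, n = 10) or non-adipogenic (N, n = 10) by whether they filled with lipid. The A and N clones came in equal numbers from 4 animals: animals 17 and 20 gave 1 clone of each kind, and animals 22 and 23 gave 4 of each. All were expanded on gelatine in medium with serum and basic fibroblast growth factor, and the sorted cells were started with conditioned medium from the same animal's MSCs. RNA was taken from undifferentiated cells, so that neither group had itself been driven towards fat. The A clones were those that differentiated best, and had kept this ability over a further expansion. Clones of the same animal are separate cultures but not separate animals, and the p-values below measure the spread between clones within an animal.

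In the Hippo pathway, the kinases MST1 and MST2 activate LATS1 and LATS2, which phosphorylate YAP and TAZ and so keep them out of the nucleus. Unphosphorylated YAP and TAZ enter the nucleus, bind TEAD proteins and switch on genes of growth, matrix and the cytoskeleton, with spread cells on a stiff surface known for high activity. In MSCs, TAZ is known as a regulator of the choice between bone and fat, and acts against the adipogenic regulator PPARG. Control of the pathway is largely by phosphorylation and by where the proteins are in the cell, neither of which is seen in RNA counts, so the values below are transcript levels and not pathway activity.

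Total counts were 14615493 to 29185355 per library in A clones (median 16112862) and 14908802 to 43111345 in N clones (median 16316704). Levels are given as CPM, the counts per 1000000 counts of a library whose size was scaled by TMM, and were not compared between genes since transcript lengths were not used. In bulk RNA, fewer cells with a transcript and less of it per cell cannot be told apart. The MSC markers ITGB1, CD44, ENG, PDGFRA and PDGFRB were present in every clone, at 19.1 CPM or more. Of the 7 MSC markers, 0 passed the test between A and N (edgeR, and 0 also at an unadjusted p below 0.05). Over all genes tested, 20.6% passed, and 4663 of 12900 had an unadjusted p below 0.05. NT5E and THY1 were below 1 CPM in at least 1 N clone. The summed levels of 4 endothelial and of 4 macrophage and leukocyte markers did not exceed 17.2 and 11.1 CPM, and PTPRC was at or near 0 in all clones. The sum of 8 mesothelial markers was highest in 4 clones of animal 22, at 9419 CPM in N clone 22-5, 6741 in N clone 22-9, 1131 in A clone 22-11 and 965 in A clone 22-16. The next highest were A clone 23-62 at 401 CPM and N clone 23-22 at 314 CPM. Results below are also given without the named clones of animal 22 where a call was lost, as are the changes of all 10 genes. All 8 proliferation genes had a lower fitted level in A clones and 5 of them passed the test. Of all genes tested, 10.3% passed with a lower level in A clones. The median sum of the 8 was 148 CPM in A against 310.2 CPM in N clones. Those that passed were MKI67 (-1.77 ± 0.52 on the log2 scale, SE), TOP2A (-1.42 ± 0.41), CDK1 (-1.37 ± 0.31), BUB1 (-1.41 ± 0.43) and MCM5 (-1.04 ± 0.32), all cell cycle genes. CCNB1 (-1.23 ± 0.44), MCM2 (-0.77 ± 0.28) and PCNA (-0.55 ± 0.22) did not pass. What part the difference in proliferation genes has in the results below was not tested.

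None of the 10 genes differed between A and N clones by the test across all genes. By edgeR's quasi-likelihood test with the animal as a block and Benjamini-Hochberg adjustment over 12900 genes, 0 of 10 had an adjusted p below 0.05, where the share over all genes tested was 20.6% (10.3% higher and 10.3% lower in A clones). An unadjusted p below 0.05 was found for 3 of them (WWTR1, TEAD3 and LATS2), and for 4663 of all 12900 genes tested. The smallest adjusted p was 0.0818, for LATS2. DESeq2 and limma-voom also called 0 of 10, where they called 3528 and 2569 of all 12900 genes. The fitted change was above 0 for 3 genes and below 0 for 7, with a median of -0.15 on the log2 scale against -0.01 over all genes tested. The median size of the change, whatever its sign, was 0.18 for these genes and 0.25 over all. For 8 of the 10, the 95% interval of the change lay within 2-fold either way, and the exceptions were WWTR1 and TEAD4. The range of A clones overlapped that of N clones for all 10 genes, whereas 0.318% of the genes tested had groups that did not overlap.

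**Figure D1:**
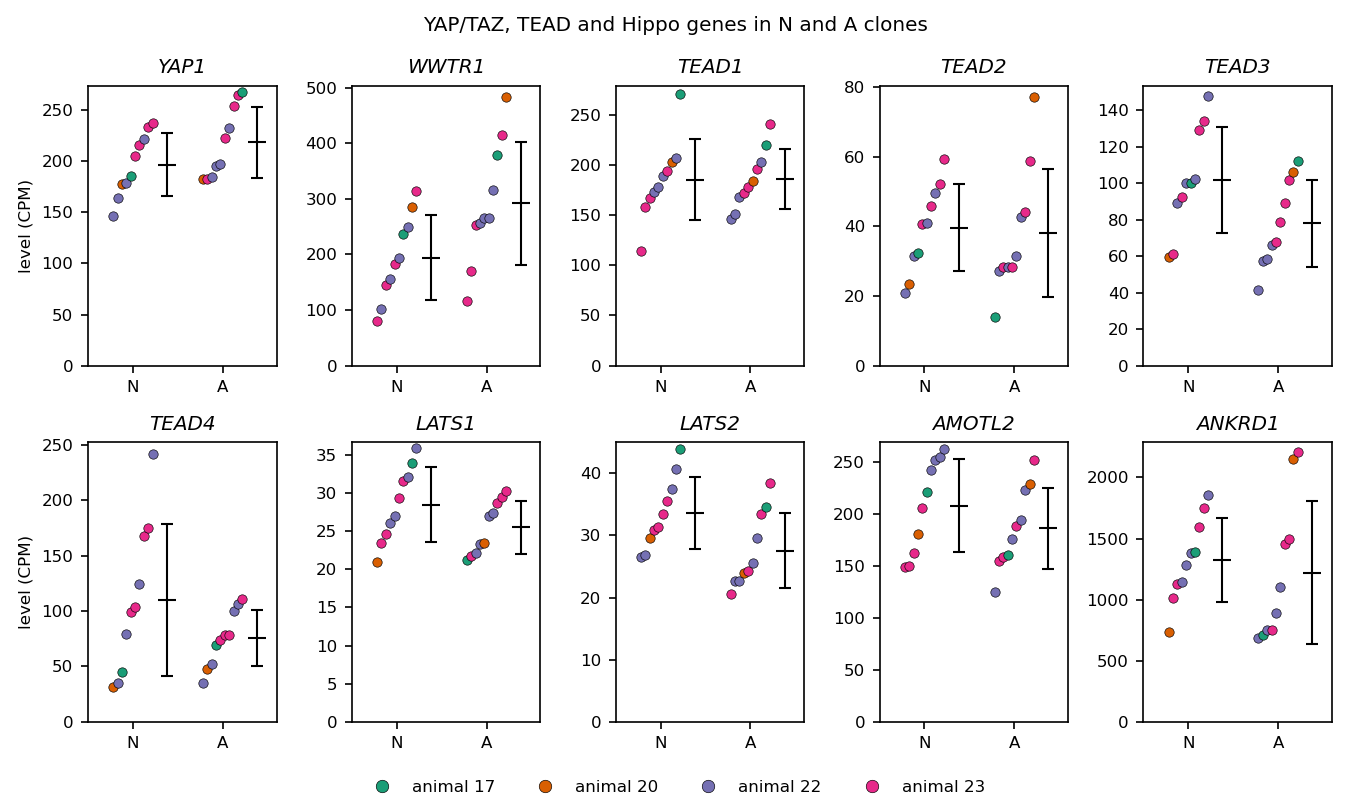
Level in CPM of each of the 10 genes in the 10 N and 10 A clones, on linear axes that start at 0 and differ between panels. Each point is 1 clone, coloured by animal and ordered by level within its group, and the bar beside each group is the mean ± SD. The groups overlap in every panel, with WWTR1 at up to 483 CPM in A clones and TEAD4 at up to 242 CPM in N clones.

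YAP1, the co-activator that gives the pathway its read-out, was among the more even genes of the table. Its level was 183 to 268 CPM in A clones (median 210.3) and 146 to 237 CPM in N clones (median 195), with means of 218 ± 34.5 and 197 ± 30.6 (SD, n = 10 each). The highest 3 A clones lay above every N clone and the lowest 4 N clones below every A clone, and the rest were mixed. The fitted change was 0.15 ± 0.09 (log2, SE), an 11.2% higher level in A clones with a 95% interval from 0.973 to 1.27-fold, which did not pass the test (edgeR adjusted p = 0.235). The mean of the A clones was the higher one in all 4 animals. Over the 20 clones, the highest YAP1 level was 1.83 times the lowest. Within animal and group, over the 16 clones of animals 22 and 23, 19.5% of the genes tested had a smaller spread.

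WWTR1, which encodes TAZ, the paralogue of YAP, varied more than YAP1. It was at 117 to 483 CPM in A clones (median 266) and at 79.8 to 315 CPM in N clones (median 188), with means of 292 ± 110.3 and 195 ± 76.9. The A clones 17-57, 20-106, 22-121 and 23-14 lay above every N clone, but A clone 23-108, at 117 CPM, lay below all N clones except 2. The fitted change was 0.57 ± 0.24, or 1.48-fold higher in A clones with an interval from 1.04 to 2.11-fold, and its adjusted p was 0.101 by edgeR (unadjusted p = 0.0306). In log2 units the difference within each animal was 0.68, 0.76, 0.72 and 0.41 for animals 17, 20, 22 and 23. The gene passed the test when N clone 23-23 was left out (0.72, adjusted p = 0.0338) or A clone 23-108 (0.66, adjusted p = 0.0498), the N clone with the highest and the A clone with the lowest level.

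The TEAD genes, which encode the factors that carry YAP and TAZ to DNA, did not move as a group. TEAD1 was at 146 to 240.3 CPM in A clones (median 181) and at 114 to 271 CPM in N clones (median 183), and both the lowest and the highest of the 20 clones were N. The means of 186 ± 29.7 and 185 ± 40.2 CPM gave a fitted change of 0.02 ± 0.11 with an interval from 0.858 to 1.19-fold (edgeR adjusted p = 0.935). The sign of so small a value depended on the clones used, with A below N in animals 17, 20 and 22 and above in animal 23.

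TEAD2 had the lowest counts of the TEAD genes, with 204 to 1574 reads per library. It was at 13.9 to 77.2 CPM in A clones (median 29.9) and 21.0 to 59.3 CPM in N clones (median 40.8), and the extremes of both ends were A clones, 17-57 at 13.9 and 20-106 at 77.2 CPM. With means of 38.1 ± 18.4 and 39.7 ± 12.5 CPM, its fitted change was -0.14 ± 0.23 (interval 0.644 to 1.27-fold, edgeR adjusted p = 0.685). The single pairs of animals 17 and 20 differed by -1.22 and 1.71 (log2, A minus N), in opposite directions and by more than the -0.09 and -0.37 of animals 22 and 23.

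TEAD3 was at 41.5 to 112 CPM in A clones (median 73.4) and at 59.6 to 148 CPM in N clones (median 100.1). A clones 22-16, 22-27 and 22-121 lay below every N clone, and 3 N clones, 1 of animal 22 and the others of animal 23, lay above every A clone. The means of 78.0 ± 23.6 and 102 ± 29.1 CPM gave a fitted change of -0.42 ± 0.20, or 0.748-fold in A clones, with an adjusted p of 0.134 by edgeR (unadjusted p = 0.0476). Animals 17 and 20 differed the other way, by 0.16 and 0.83 on the log2 scale, against -0.97 and -0.26 in animals 22 and 23. Without animal 20, or without either of its clones, A 20-106 or N 20-15, the change was -0.55 and passed the test (adjusted p = 0.0436 to 0.0440).

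TEAD4 had the widest spread of the 10 genes, with a highest level 7.78 times the lowest over the 20 clones. Within animal and group, over the 16 clones of animals 22 and 23, 83.7% of the genes tested spread less. It was at 35.4 to 110.4 CPM in A clones (median 76.3) and 31.1 to 242 CPM in N clones (median 101). The N clones that exceeded every A clone were 22-5 at 242, 23-74 at 175, 23-22 at 167 and 22-9 at 125 CPM, although the lowest level, 31.1 CPM, was also in an N clone (20-15). The means were 75.3 ± 25.2 and 110.0 ± 68.5 CPM, and the fitted change of -0.43 ± 0.31 did not pass the test, with the widest interval of the set (0.473 to 1.16-fold, edgeR adjusted p = 0.317). N clones 22-5 and 22-9 were those with the high mesothelial marker sums, and without them the fitted change was -0.06, or -0.28 when A clones 22-11 and 22-16 were left out too.

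Of the kinases that inhibit YAP and TAZ, LATS2 gave the smallest adjusted p among the 10 genes. It was at 20.6 to 38.4 CPM in A clones (median 24.9) and at 26.5 to 43.8 CPM in N clones (median 32.4), with means of 27.6 ± 6.06 and 33.6 ± 5.76. Of the 10 A clones, 6 lay below every N clone, while the highest A clone, 23-14 at 38.4 CPM, exceeded 8 N clones. The fitted change was -0.29 ± 0.11, or 0.819-fold in A clones with an interval from 0.693 to 0.969-fold, at an adjusted p of 0.0818 by edgeR (unadjusted p = 0.0224). All 4 animals had the lower mean in A clones, by -0.34, -0.30, -0.37 and -0.21 on the log2 scale. Leaving out A clone 23-14 took it past the test (-0.35, adjusted p = 0.0318), and leaving out the N clones with high mesothelial marker sums reduced it to -0.18 (adjusted p = 0.276).

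LATS1, the other kinase, had the narrowest range of the 10 genes, with a highest level 1.72 times the lowest. It was at 21.3 to 30.3 CPM in A clones (median 25.2) and 20.9 to 35.9 CPM in N clones (median 28.2). The N clones held both the 4 highest levels and the lowest. The means of 25.5 ± 3.46 and 28.5 ± 4.87 CPM gave a fitted change of -0.15 ± 0.10, with an interval from 0.773 to 1.04-fold (edgeR adjusted p = 0.285), and the animals differed in direction, from -0.67 in animal 17 to 0.16 in animal 20.

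AMOTL2 encodes a junction protein that can bind YAP and is itself switched on by it. It was at 125 to 252 CPM in A clones (median 183) and at 149 to 262 CPM in N clones (median 213), with means of 186 ± 39.1 and 208 ± 44.9. Most clones of both kinds shared the same range, with 1 A clone below and 2 N clones above the other group. The fitted change of -0.14 ± 0.14 did not pass the test (interval 0.743 to 1.11-fold, edgeR adjusted p = 0.493).

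ANKRD1, a cardiac and stress-induced ankyrin repeat protein widely used as a YAP/TAZ target, had the highest counts of the set, with 10473 to 54252 reads per library. It was at 689 to 2209 CPM in A clones (median 998) and 735 to 1857 CPM in N clones (median 1334). Both the 2 highest and the 2 lowest levels of the 20 clones were in A clones, so that the A group was wider (1222 ± 585 CPM) than the N group (1327 ± 343 CPM). Its fitted change was -0.20 ± 0.24 (interval 0.610 to 1.24-fold, edgeR adjusted p = 0.578), and the animals ran from -0.96 in animal 17 to 1.55 in animal 20.

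**Figure D2:**
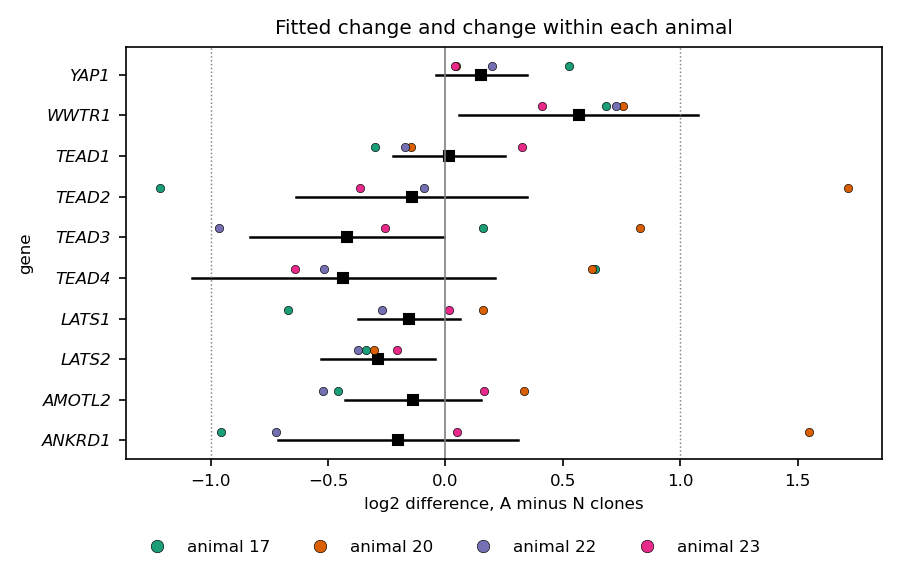
Difference between A and N clones for each of the 10 genes, in log2 units, with values to the right of 0 higher in A clones. Squares are the fitted change over 20 clones with its 95% interval as a line, circles the difference of means within each animal, and dotted lines a 2-fold change either way. The 4 animals share a direction for YAP1, WWTR1 and LATS2, and for TEAD2 and ANKRD1 animals 17 and 20 lie on opposite sides of 0.

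Without N clones 22-5 and 22-9, which had the highest mesothelial marker sums, the fitted changes were 0.11 for YAP1, 0.45 for WWTR1, 0.015 for TEAD1, -0.0049 for TEAD2, -0.41 for TEAD3, -0.058 for TEAD4, -0.076 for LATS1, -0.18 for LATS2, -0.098 for AMOTL2 and -0.20 for ANKRD1. With A clones 22-11 and 22-16 left out as well, they were 0.13, 0.48, 0.078, 0.0065, -0.36, -0.28, -0.11, -0.22, -0.12 and -0.096 in the same order of genes. In both fits 0 of 10 passed the test by edgeR, and 0 had an unadjusted p below 0.05. Over all genes, 1859 of 13114 passed without the 2 N clones and 1393 of 12808 without the 4 clones.

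The plot of fitted changes shows the animals beside the fit. All 4 animals shared a direction for YAP1 and WWTR1 (A higher) and for LATS2 (A lower), while 7 genes had animals on both sides of 0. Since animals 17 and 20 gave 1 clone of each kind, a difference there is that of a single pair.

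Animals 22 and 23, with 4 clones of each kind, were compared more closely. In animal 22, the A and N clones did not overlap for 4 of the 10 genes, against a background of 12.4% of all genes tested (7.01% with A above and 5.41% with A below). WWTR1 was at 257 to 316 CPM in the A clones of this animal and 102 to 249 CPM in its N clones. TEAD3, AMOTL2 and ANKRD1 were lower in its A clones, with means of 56.0 ± 10.4 against 110.0 ± 26.0 CPM, 180 ± 41.0 against 253 ± 8.32 CPM, and 859 ± 186 against 1418 ± 308 CPM (SD, n = 4 each). When animal 22 was fitted alone, 0 of the 10 passed the test and 4 had an unadjusted p below 0.05. Few genes passed in that fit, 153 of 13305, so the 0 says little about these genes.

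In animal 23, the groups overlapped for all 10 genes, where 18.2% of the genes tested did not overlap (10.2% with A above and 7.95% with A below). AMOTL2 was at 189 ± 44.8 CPM in the A and 167 ± 26.8 CPM in the N clones of animal 23, and ANKRD1 at 1480 ± 594 against 1371 ± 355 CPM. WWTR1 averaged 238 ± 130 against 181 ± 99.0 CPM and TEAD3 84.4 ± 14.5 against 104 ± 34.2 CPM, each with an SD in N clones larger than the difference. A test of whether the change itself differed between the animals, on their 16 clones, called 0 of the 10 genes (edgeR) and 0.031% of all genes tested. An unadjusted p below 0.05 was found for 1 of the 10 and for 9.06% of all genes tested. The smallest adjusted p was 0.481, for AMOTL2, whose change was 0.67 ± 0.26 (log2, SE) higher in animal 23. DESeq2 also called 0 of 10 in that test, and the difference between the animals was thus not shown for any of these genes.

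The 10 genes were also compared with each other over the 20 clones, as log2 CPM after each animal's mean was taken away. Of the 45 pairs, 9 had a Pearson's r with an unadjusted p below 0.05, by a permutation test of 100000 shuffles within animals, and 0 passed Benjamini-Hochberg adjustment over the 45, for r or for Spearman's rho. The highest was LATS1 with LATS2 (r = 0.69, permutation p = 0.0019, adjusted p = 0.0615; rho = 0.63, permutation p = 0.0106, adjusted p = 0.0792), with r = 0.60 when the 2 clones farthest from the median of LATS1 were left out. Within animals 22 and 23 its r was 0.96 and 0.48, over 8 clones each. The 2 highest levels of both genes in animal 22 were in N clones 22-5 and 22-9, which had the highest mesothelial marker sums. LATS1 was at 35.9 and 32.1 CPM in these clones, and LATS2 at 40.8 and 37.5 CPM. TEAD3 with ANKRD1 (r = 0.66, rho = 0.69) and AMOTL2 with ANKRD1 (r = 0.65, rho = 0.67) followed, each at an adjusted permutation p of 0.0615 for r and 0.0666 for rho. Without the 2 clones farthest in TEAD3 or AMOTL2, r was 0.63 and 0.55. These values include any difference between A and N clones. Centred within group too, in animals 22 and 23, r was 0.56 in A and 0.56 in N clones for TEAD3. For AMOTL2 it was 0.32 in A and 0.74 in N clones. The lowest was WWTR1 with TEAD4 (r = -0.58, permutation p = 0.0055, adjusted p = 0.0615; rho = -0.54, adjusted p = 0.124), which was -0.33 without the 2 clones farthest in WWTR1. N clones 22-5 and 22-9 had the lowest WWTR1 and the highest TEAD4 levels of animal 22. What part these clones have in the r of either pair was not tested. YAP1 and WWTR1, the paralogous co-activators, had r = 0.20.

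**Figure D3:**
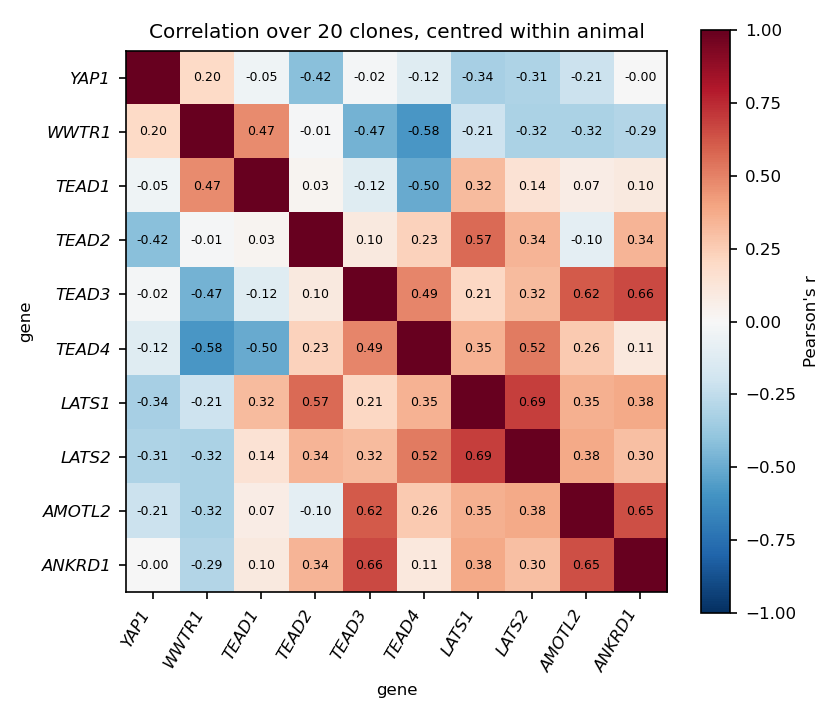
Pearson's r between each pair of the 10 genes over 20 clones, from log2 CPM centred within each animal; red is positive and blue negative, and each square prints its value. LATS1 with LATS2 is the highest at 0.69 and WWTR1 with TEAD4 the lowest at -0.58.

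For each gene, the 2 other genes with the most similar pattern over the 20 clones were taken from 11810 named candidates by the same measure, as a description with no test. The r of these genes was 0.77 to 0.90. For YAP1 they were ARMC10 (r = 0.87) and TMEM38A (0.80), and for WWTR1 they were ENPP1 (0.90) and CPEB1 (0.86). For TEAD1 they were NARF (0.78) and C1H3orf38 (0.77), for TEAD2 PM20D2 (0.82) and NR2F6 (0.80), for TEAD3 NACC2 (0.85) and MFGE8 (0.84), and for TEAD4 PDLIM1 (0.88) and VWA7 (0.86). For LATS1 they were LRP6 (0.83) and STON1 (0.81), and for LATS2 LENG9 (0.85) and DCAF1 (0.83). AMOTL2 was most like INPPL1 (0.80) and TTC13 (0.79), and ANKRD1 most like TMEM38B (0.90) and TRAPPC13 (0.85). These were picked as the highest among all candidates, so their size carries no test.

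The 26 other Hippo regulators measured, from the MST kinases to the cell polarity genes upstream, gave 4 genes that passed the test (15.4%), 2 higher and 2 lower in A clones, against 20.6% of all genes. The core kinases MST1 and MST2 (STK4 and STK3), their partners SAV1, MOB1A and MOB1B, and the upstream tumour suppressor NF2 did not pass, with fitted changes from -0.22 (STK4, edgeR adjusted p = 0.193) to 0.14 (STK3, adjusted p = 0.181). Those not called with the largest fitted changes were the atypical cadherins DCHS1 (1.49 ± 0.67, edgeR adjusted p = 0.118) and FAT1 (0.61 ± 0.25, adjusted p = 0.0889), then RASSF1 (0.55 ± 0.20, adjusted p = 0.0607), which can bind the MST kinases, and the LIM protein AJUBA (-0.51 ± 0.25, adjusted p = 0.158), which can bind the LATS kinases. DCHS1 was low, with 5 to 219 reads per library and medians of 3.26 CPM in A and 0.569 CPM in N clones. In animal 17 it differed the other way, by -3.89 on the log2 scale. The smallest adjusted p among the regulators not called was 0.0601, for the polarity gene DLG5 (-0.36 ± 0.13), whose mean was lower in A clones in all 4 animals. TAOK2 and MAP4K4, kinases that can feed into the LATS kinases, rose in A clones. MAP4K4 was at 504 to 939 CPM (median 701) in A and 358 to 711 CPM (median 478) in N clones, a change of 0.48 ± 0.13 (edgeR adjusted p = 0.0179), with overlapping ranges. TAOK2 changed by only 0.24 ± 0.08 (adjusted p = 0.0489), and its call was lost when any of 15 of the 20 clones was left out, and without the 4 clones of high mesothelial marker sum (adjusted p = 0.0552).

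AMOT, which encodes angiomotin, a junction protein that holds YAP in the cytoplasm, had the largest change among the regulators that passed. It was at 9.89 to 30.1 CPM in A clones (median 14.2) and at 22.9 to 89.3 CPM in N clones (median 56.3). A clones 20-106, 23-108 and 23-68, at 30.1, 28.9 and 23.0 CPM, exceeded the lowest N clone, 22-5, whereas no N clone was as low as any of the other 7. The groups were separate within animal 22 and within animal 23. The change of -1.65 ± 0.22 amounted to a 3.14-fold lower level in A clones (17.8 ± 7.57 against 56.5 ± 22.5 CPM, edgeR adjusted p = 0.00043), and AMOT passed the test with any clone left out. Its relatives behaved otherwise in the test, with AMOTL1 at 0.03 ± 0.08 (adjusted p = 0.807) and AMOTL2 as given above.

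SCRIB, a polarity scaffold, fell by 0.50 on the log2 scale in A clones (SE 0.12, edgeR adjusted p = 0.0094), from 78.4 ± 14.3 to 55.7 ± 10.1 CPM. Its lowest N clone, at 62.3 CPM, lay within the range of A clones, and without the 4 clones of high mesothelial marker sum the change was -0.38 and did not pass (adjusted p = 0.0536). Of the VGLL cofactors, which compete with YAP for TEAD, VGLL4 fell by 0.56 (SE 0.17, adjusted p = 0.0315), from 43.3 ± 12.5 to 29.9 ± 9.02 CPM, and VGLL3 changed by 0.09 ± 0.28 (adjusted p = 0.853). The VGLL4 call was lost when any of 6 clones was left out, and without the N clones with high mesothelial marker sums (-0.38, adjusted p = 0.102). VGLL2 was too low to test. Of the 4 VGLL cofactors listed, 3 were found by symbol among the counted genes, and VGLL1 was not among these.

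**Figure D4:**
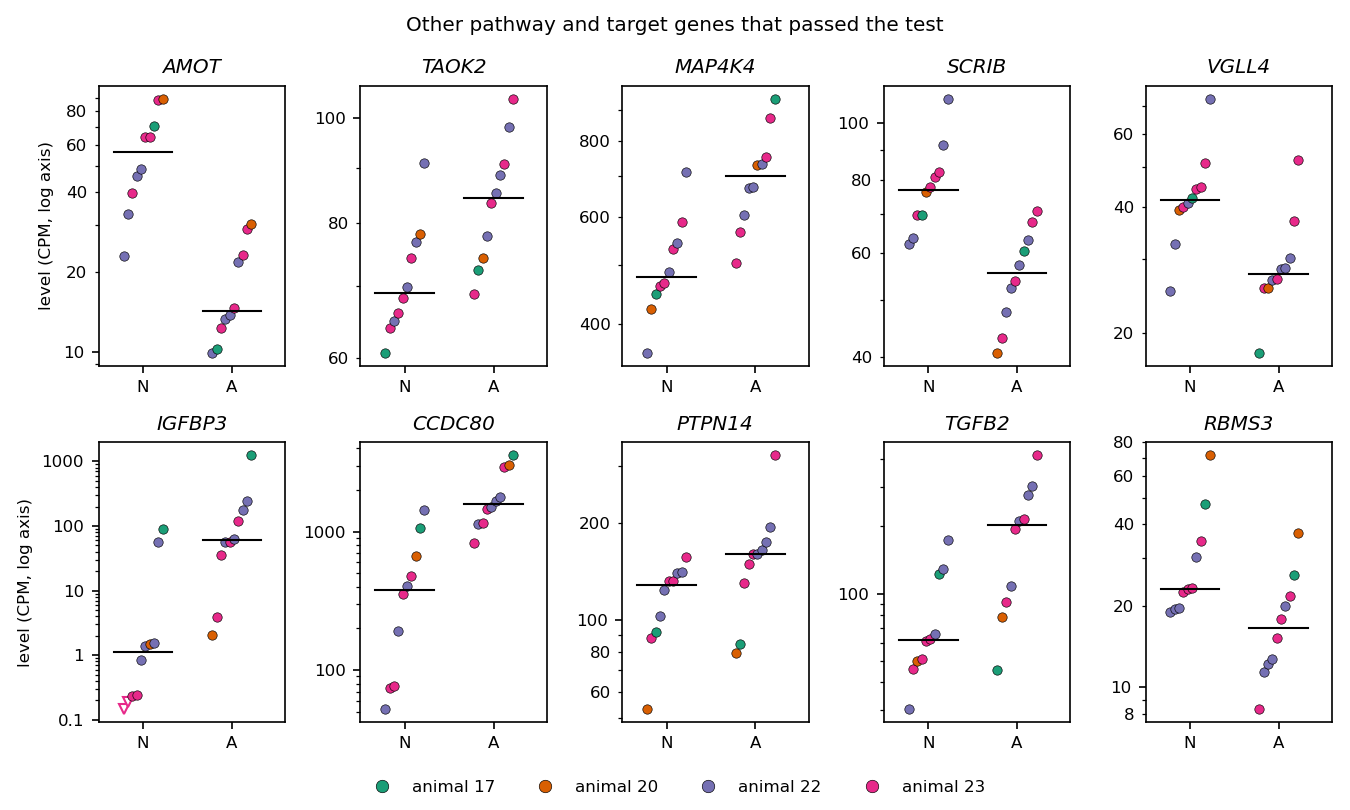
Level in CPM, on log axes that differ between panels, of the other Hippo genes (AMOT, TAOK2, MAP4K4, SCRIB), the TEAD cofactor (VGLL4) and the YAP/TAZ targets (lower row) that passed the test. Each point is 1 clone coloured by animal and ordered by level, bars are medians, and open triangles in the IGFBP3 panel are clones with 0 counts drawn at the level that 3 counts would give. A and N clones overlap in every panel, and AMOT medians are 14.2 CPM in A and 56.3 CPM in N clones.

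Genes known as YAP/TAZ targets in other cell types were read beside the regulators. Of the 19 listed, 18 were tested and 5 passed (27.8%, against 20.6% of all genes), 4 higher and 1 lower in A clones. The median change was 0.31 over the 18 and -0.01 over all genes. The fitted change was above 0 for 15 of the 18 and below 0 for 3, against 6290 and 6610 of all 12900 genes. The CCN genes, the targets in widest use, did not pass. CTGF (CCN2) was at 1019 to 5591 CPM in A clones (median 2777) and at 1014 to 3005 CPM in N clones (median 2269), a change of 0.46 ± 0.26 (edgeR adjusted p = 0.214). CYR61 (CCN1) was at 245 to 1055 CPM in A clones (median 713) and 479.5 to 1219 CPM in N clones (median 811), a change of -0.21 ± 0.23 (adjusted p = 0.534). Of the fitted changes of CTGF, CYR61, ANKRD1 and AMOTL2, 1 was above and 3 were below 0. ANKRD1 and AMOTL2 are not among the 18.

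Of the targets that passed, IGFBP3, which binds insulin-like growth factors, was at 2.06 to 1256 CPM in A clones (median 59.7) and at 0 to 89.0 CPM in N clones (median 1.13). Most A clones exceeded most N clones by far, but N clones 17-23 and 22-18, at 89.0 and 57.5 CPM, lay among the A clones. The 2 N clones with 0 counts, 23-22 and 23-74, allow a level of up to 0.189 and 0.146 CPM. The fitted change of 4.40 ± 1.11 (edgeR adjusted p = 0.0123) depends on how such low counts are treated, and the call was lost without the 4 clones of high mesothelial marker sum (4.36, adjusted p = 0.0646). CCDC80, a secreted protein with a known role in adipocyte differentiation, was at 832 to 3584 CPM in A clones (median 1581) and at 52.2 to 1443 CPM in N clones (median 381), a 4.25-fold rise (2.09 ± 0.51, adjusted p = 0.0106).

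TGFB2, a growth factor of the TGF-beta family, rose by 1.27 ± 0.39 (edgeR adjusted p = 0.0319), and PTPN14, a phosphatase that restrains YAP, by 0.46 ± 0.15 (adjusted p = 0.042). For both, the A clones had the higher mean in 3 animals. In animal 17 the difference was -1.43 for TGFB2 and -0.12 for PTPN14 on the log2 scale. RBMS3, an RNA-binding protein, fell by 0.73 (SE 0.16, adjusted p = 0.0062), from 31.1 ± 16.9 to 18.2 ± 8.46 CPM. The TGFB2 and PTPN14 calls were lost when any of 8 and of 11 clones was left out, and without the N clones with high mesothelial marker sums (adjusted p = 0.0814 and 0.0719). F3, the coagulation initiator tissue factor, had a fitted change of 1.88 ± 0.86 that did not pass (adjusted p = 0.127), and FOXF2 was too low to test.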

How the data were processed

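RNA from 20 bovine MSC clones (10 A and 10 N, grouped by the labels) was sequenced on an Illumina NovaSeq from directional NEBNext libraries. Per the labels and the study's methods, the authors trimmed reads with Trimmomatic 0.36, aligned them to ARS-UCD1.2 with STAR 2.5.2b and counted unique reads in exons with Subread 1.5.2. The deposited values are raw counts per gene. The strand setting of the counting is not given in the sources used here, so reads of overlapping or antisense genes cannot be told apart. One unnamed row, which held 0.113 to 0.333% of each library's counts, was left out.

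From these counts, R 4.3.3 and edgeR 4.0.16 were used to normalise by TMM, filter by filterByExpr and run the quasi-likelihood test with robust dispersion, animal as a block and condition. The pairing is that A and N clones came from the same animals. Genes were called at an adjusted p below 0.05. The interaction test used the 16 clones of animals 22 and 23. The text gives log2 fold changes with SE, and CPM as mean ± SD. Alternatives were DESeq2 1.42.0, limma 3.58.1 (voom), other normalisations and filters, no block, counts summed per animal, and each animal or clone left out. The procedure was tested on simulated data.

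All 10 members are named. From the lists (Hippo regulators, VGLL cofactors, YAP/TAZ targets, and markers of MSCs, mesothelium, endothelium, leukocytes, smooth muscle, mature adipocytes and proliferation), called genes are named first and then some of those not called with the largest fitted change. CCN1 and CCN2 stand in the table as CYR61 and CTGF. A further gene list is not reported here. The members and lists were chosen with earlier results of these data known. At these depths each member had at least 204 reads in every library. No coordinates or sequences are given, since a genome of the files' build was not used here.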

Additional observations from a re-analysis of the deposited data

How the results depend on the processing

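The count of 0 among the 10 genes became 1 without animal 20 (TEAD3, where 2436 of all 12909 genes were called), and was 0 to 1 with 1 clone left out. It stayed 0 with no replicate block and in every other setting. Of 370 refitted changes of these genes, 349 kept their direction and side of the threshold, 6 passed it and 15 changed sign. Signs changed for TEAD1 with counts summed per animal (-0.079), in animal 22 alone (-0.17), without animal 23 (-0.19) and with single clones left out (-0.051 to 0.051, and negative without N 23-10, N 23-74, A 22-121 or A 23-14), for TEAD2 (0.046) and TEAD4 (0.060) with counts summed, in animal 23 alone for LATS1 (0.019), AMOTL2 (0.18), ANKRD1 (0.11) and CYR61 (0.018), and without animal 22 for AMOTL2 (0.10) and ANKRD1 (0.17). None of the sign changes passed the test. Of the regulators and targets, 4 and 5 were called, and 2658 of all 12900 genes. Counts summed per animal gave 0 and 0, and 0 of all 14669 genes. Animal 22 alone gave 1 and 0 (153 of all 13305 genes), and animal 23 alone 1 and 2 (800 of 12853). The clones without animal 23 gave 0 and 0 (32 of 13071). With no replicate block the regulators and targets gave 3 and 2 (2168 of 12900). The animal block changed no call among the 10 genes. DESeq2 called 8 regulators (3528 of 12900) and limma-voom 3 targets (2569 of 12900). With 1 clone left out, regulators were 3 to 7 (7 without N 22-18) and targets 3 to 5. Without the clones of high mesothelial marker sum, a choice made after seeing the data, 0 of the 10 were called. Targets were then 3 without 2 N clones (1859 of all 13114 genes). They were 2 without 4 clones (1393 of all 12808 genes), where TEAD2 was 0.0065. The interaction count stayed 0 in every refit. The cause of these shifts was not tested, beyond the fewer samples of each refit. IGFBP3 has no value with at least 10 counts required in every clone. The 10 genes had at least 204 reads in every library, and precision is limited by the 4 animals, 2 of which gave 1 clone a group.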

Other observations

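Among markers of other cell types, read against a share of 20.6% called over all genes, 1 of 7 mesothelial markers tested passed (MSLN, lower in A clones, -1.97 ± 0.64, edgeR adjusted p = 0.0393), as did 1 of 5 smooth muscle markers (MYH11, 3.04 ± 1.05, adjusted p = 0.0484), 1 of 3 mature adipocyte markers (PLIN1, 0.53 ± 0.18, adjusted p = 0.0456), 1 of 1 macrophage and leukocyte markers (CD68, 1.06 ± 0.28, adjusted p = 0.0157) and 0 of 2 endothelial markers (1 at an unadjusted p below 0.05). Levels of 3 of these genes were low. MYH11 had a median of 3.64 CPM in A and 0.611 CPM in N clones, with the highest A clone at 115 CPM. Medians in A and N clones were 4.54 and 3.01 CPM for PLIN1, and 3.51 and 1.85 CPM for CD68. All 5 smooth muscle markers had a fitted level higher in A clones, 4 of them at an unadjusted p below 0.05. Among the adipocyte markers CIDEC had a fitted change the other way (-0.64 ± 0.30, adjusted p = 0.129), with its A clones below its N clones within animal 23, and that of FABP4 was 0.94 ± 0.72 (adjusted p = 0.357). The summed level of the smooth muscle genes was 4054 to 11339 CPM in A clones (median 5838) and 1082 to 9972 CPM in N clones (median 3603). What part these differences have in the levels of the Hippo genes was not tested.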
